A study of Homo sapiens with 6 samples.

Results

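The genes described here encode the structural matrix that cells lay down around themselves, and were taken by name: every collagen chain, laminin chain and lysyl oxidase, with 15 named matrix glycoproteins. The rule found 40 of the 15917 genes with a row in the deposited table, namely 18 collagen chains, 9 laminin chains, 4 lysyl oxidases and 9 of the named glycoproteins. GENCODE lists 76 genes under these names, and the 36 without a row were not analysed here. All 40 carried the same symbol and identifier in the table and in GENCODE.

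The RNA came from MDA-MB-231, an established human breast cancer line, after lentiviral delivery of short hairpins and puromycin selection. The series has 6 libraries: 2 with the control hairpin shCTRL (genotype WT in the labels), 2 with shRBMS3-B3 (RBMS3 KD1) and 2 with shRBMS3-C3 (RBMS3 KD2). RBMS3 is an RNA binding protein, and the study asked which transcripts respond when it is depleted. For these genes the deposited table gives the authors' mean normalized count over the libraries of their comparison, knockdown and control together, and otherwise only the results of that comparison, which were not used. No value of a single library was therefore analysed. The depth of each library is unknown, the means carry no error, and no difference between knockdown and control cells is reported. The comparison is described with 2 knockdown and 2 control replicates, fewer than the 6 libraries, and which of them entered the mean is not given in the sources used here.

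The matrix is built from a small number of designs. Collagen chains wind in threes into a triple helix, and the chain types decide whether the product forms fibrils, sheets, filaments or membrane-bound rods. Laminins are cross-shaped trimers of an alpha, a beta and a gamma chain that polymerize beneath epithelia, where collagen IV, nidogens and the heparan sulfate proteoglycans perlecan and agrin complete the basement membrane. Lysyl oxidases crosslink collagen and elastin, and glycoproteins such as fibronectin and thrombospondin join matrix to cell surface receptors.

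The label of the cells was set beside its markers. VIM, AXL, S100A4, CD44 and EGFR, which mark this mesenchymal-like line, lay between percentiles 90.6 and 99.6 of all listed genes in level per kb, defined in the next paragraph. Of 7 luminal or epithelial markers, ESR1 and PGR have no row and *CDH1*, the epithelial cadherin, lay at percentile 1.58, whereas *KRT8* lay at 98.8 and *ERBB2* at 72.5. *EPCAM* and *GATA3* lay at 32.8 and 27.9. Among markers of other cell types, DCN, LUM, PDGFRA and FAP of fibroblasts, CDH5 and VWF of endothelium and PTPRC of leukocytes have no row. *PDGFRB* had a mean of 139 and *PECAM1* of 69.0. The targeted gene *RBMS3* had a mean of 272 over libraries with and without knockdown.

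Counts from a long transcript exceed those from a short one at the same number of molecules, and matrix transcripts are long. The median representative transcript of the 40 genes had 6180 bases, against 2852 bases over the 15829 listed genes matched to GENCODE. Levels are therefore given as mean normalized count per kb of the representative transcript. On this scale the median of the matrix genes was 182 per kb, against 137 per kb over all matched genes, and 23 of the 40 lay above that median of all genes. The genes were spread widely: 3 lay in the top 10% of all genes and 9 in the lowest 20%. The lowest mean in the table was 26.7. A long transcript can therefore have a row at a lower level per kb than a short one. The low percentiles depend on this background and on the division by length. By mean count *COL6A3* moved from percentile 18.3 to 49.7 and *COL4A4* from 0.366 to 8.51, whereas *EFEMP2* moved from 11.1 to 8.90. The highest level, that of *THBS1*, was 650-fold the lowest, that of *LAMA1*. Together the 40 genes, 0.251% of the genes listed, made up 0.456% of the summed mean normalized counts but 0.0507% of the summed level per kb. The latter sum runs over all 15829 matched genes, of which 12408 are protein-coding, and division by length gives short transcripts more weight. It does not describe the typical matrix gene, since the median of the matrix genes lay above that of all genes. The sample is bulk RNA, in which a low level in every cell and a higher level in few cells cannot be told apart.

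**Figure D1:**
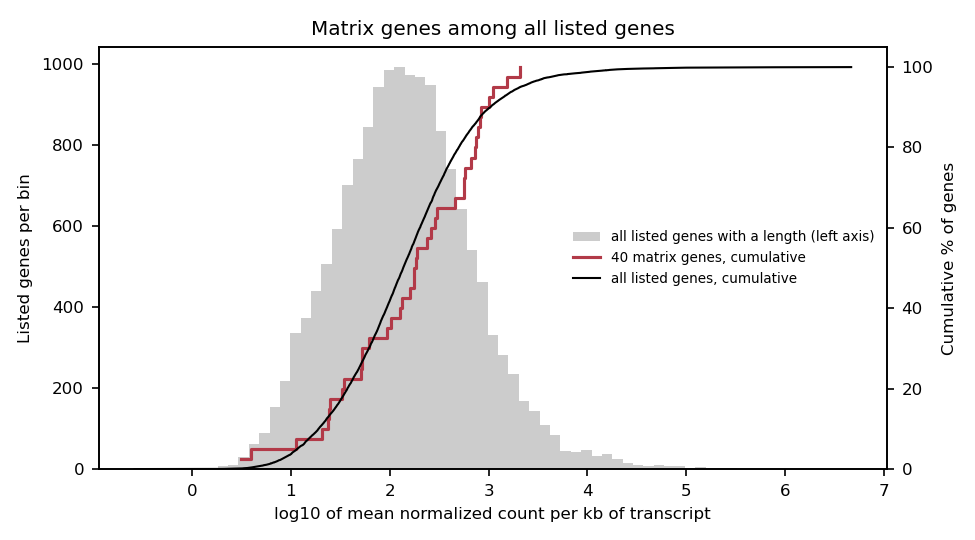
Matrix genes among all listed genes. Grey bars count the matched genes in each bin of log10 mean normalized count per kb (left axis), and the lines give the cumulative percent of all matched genes (black) and of the 40 matrix genes (red) on the right axis. The red line ends at *THBS1*, with 2058 per kb, and 23 of the 40 matrix genes lie to the right of the median of all genes, 137 per kb.

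The 5 highest levels were those of *THBS1*, *LOXL2*, *COL13A1*, *LAMB3* and *COL4A2*. These 5 genes held 42.9% of the summed level per kb of all 40, and *THBS1* alone 13.5%. They have different roles: an adhesive glycoprotein, a crosslinking enzyme, a membrane collagen, a laminin chain and a basement membrane collagen. With total exonic length the 5 highest were *THBS1*, *LOXL2* and the laminin chains *LAMB3*, *LAMA5* and *LAMC1*. By mean count without division by length, the 5 highest were *THBS1*, *LAMA5*, *HSPG2*, *FN1* and *AGRN*, so that *THBS1* was first on both scales and the long transcripts of *LAMA5* and *HSPG2* moved up.

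**Figure D2:**
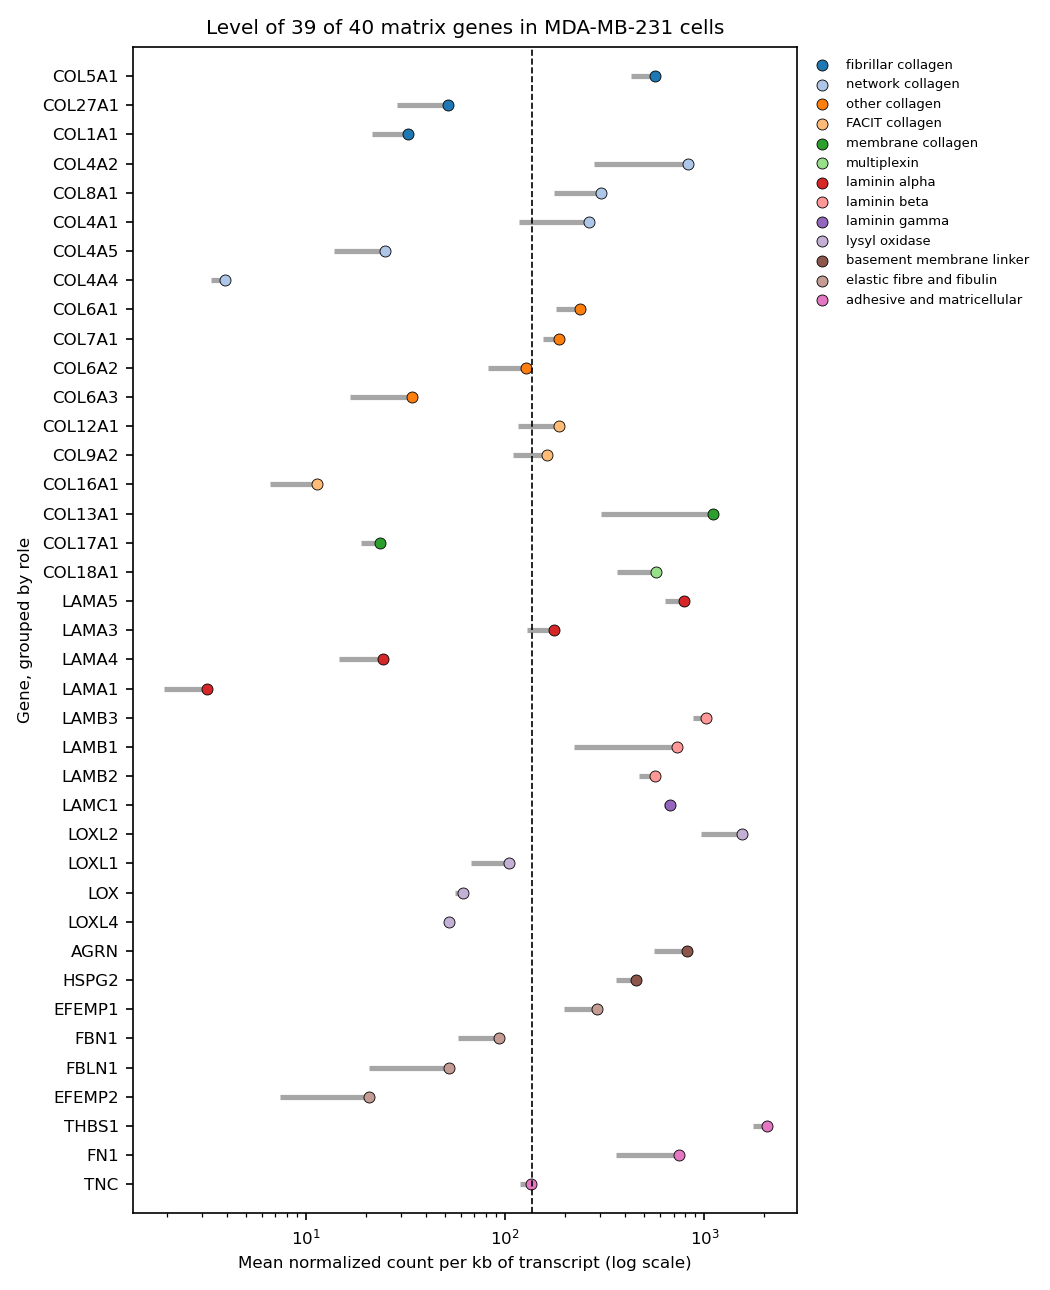
Level of 39 of the 40 matrix genes. Points give the authors' mean normalized count per kb of the representative transcript on a log axis, coloured by role. Grey lines span the values obtained with the representative transcript, the longest transcript and the total exonic length, and the dashed line marks the median of all matched genes, 137 per kb. *THBS1* and *LOXL2* lie farthest to the right, *LAMA1* and *COL4A4* farthest to the left.

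Of 4 laminin beta chains, 3 have a row, and these were all high. The 4 alpha chains with a row ranged over more than 2 orders of magnitude. *LAMA5*, whose product is the broadly expressed alpha chain of adult basement membranes, had a mean of 9015 and a level of 789 per kb. *LAMA3*, the alpha chain of epithelial anchoring laminin, had a mean of 1871 and a level of 176 per kb. *LAMA4*, typical of vessels and muscle, had 24.3 per kb. *LAMA1*, the alpha chain of embryonic basement membrane, had a mean of 30.5, close to the lowest mean in the table, 26.7, and a level of 3.17 per kb. In level per kb, *LAMA5* was 4.49-fold above *LAMA3*, *LAMA3* 7.23-fold above *LAMA4*, and *LAMA4* 7.66-fold above *LAMA1*. This order was the same with each of the 3 lengths tried. *LAMA2*, the alpha chain of muscle laminin, has no row.

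The length of *LAMA3* is uncertain because the gene makes a long and a short alpha chain from different start sites. Its representative transcript has 10651 bases. With the second reference transcript of the gene, which has 5618 bases, the level was 333 per kb, an alternative chosen after the values were seen, and *LAMA5* was then 2.37-fold above it. The gene lies on the plus strand at chr18:23689453-23956222.

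*LAMB3*, the beta chain that pairs with the alpha chain of *LAMA3*, had the highest level of the laminin chains, 1015 per kb from a mean of 4074. The other beta chains were *LAMB1*, with 724 per kb, and *LAMB2*, with 563 per kb. Both encode beta chains that join the alpha chain of *LAMA5*. Their order is not settled: with total exonic length *LAMB2* was the higher, at 467 against 220 per kb. *LAMC1*, the most widely used gamma chain, had a mean of 5297 and a level of 668 per kb. LAMB4 has no row.

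Set out by the trimers known from textbooks, the chains were matched to different degrees. *LAMA5*, *LAMB1* and *LAMC1* lay close together per kb, with *LAMA5* 1.09-fold above *LAMB1* and *LAMB1* 1.08-fold above *LAMC1*. These small differences depend on the length: with total exonic length *LAMA5* was 2.87-fold above *LAMB1*. The ratio of *LAMB1* to *LAMC1* turned to 0.910 with the longest transcript and 0.351 with total exonic length. *LAMB3* was 5.78-fold above its partner *LAMA3*. With the short *LAMA3* transcript, *LAMB3* was 3.05-fold above *LAMA3*. Without replicate values, no error can be put on these ratios.

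**Figure D3:**
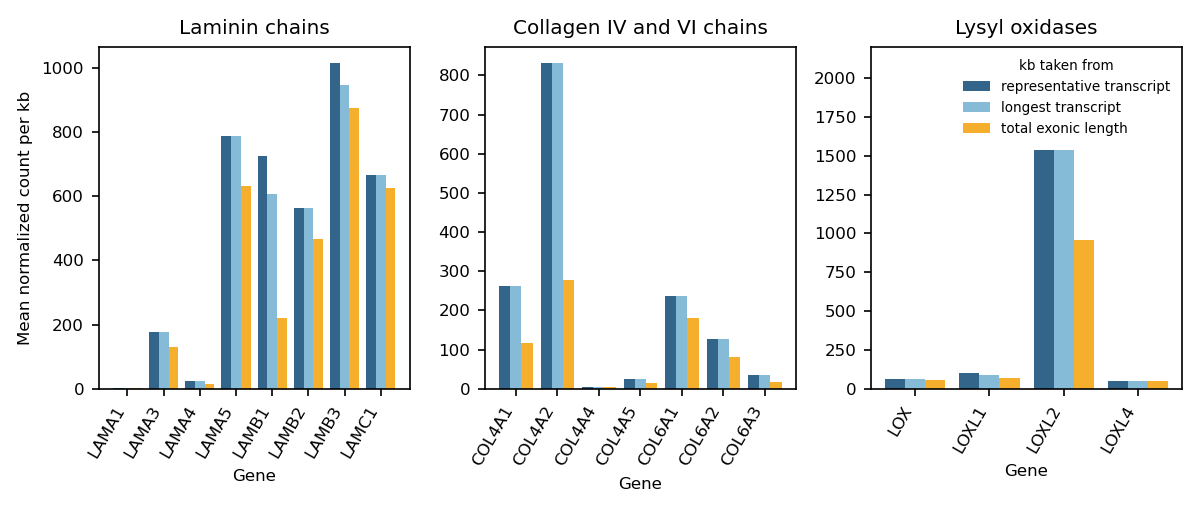
Levels of 8 laminin chains, collagen IV and VI chains and lysyl oxidases. Bars start at 0 and give the authors' mean normalized count per kb, with kb taken from the representative transcript, the longest transcript or the total exonic length. *LAMB3* is the highest laminin chain, *COL4A2* the highest of the collagen chains shown and *LOXL2* the highest lysyl oxidase with each length, and *LAMB1* shows the largest drop among laminin chains with total exonic length.

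Collagen IV, the sheet-forming collagen of basement membranes, was represented by 4 of its 6 chains. *COL4A2* had a mean of 5357 and a level of 831 per kb, and *COL4A1* a mean of 1717 and a level of 263 per kb. *COL4A2* was thus 3.16-fold above *COL4A1*, and 2.37-fold above it with total exonic length. In the common collagen IV trimer, the chain of *COL4A1* occurs more often than that of *COL4A2*, so that the order of the transcript levels was the opposite of the order of the chains. Both genes lie head to head on chromosome 13, *COL4A1* on the minus strand at chr13:110148963-110307157 and *COL4A2* on the plus strand at chr13:110305812-110513209. The start sites of their representative transcripts lie 127 bases apart. *COL4A5*, a chain of the kidney and eye networks, had 24.99 per kb, and *COL4A4* had 3.93 per kb. COL4A3 and COL4A6 have no row. *COL8A1*, a network collagen of vessel walls and the cornea, had 301 per kb.

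Fibrillar collagens, the main collagens of connective tissue, were represented by 3 of 11 genes. *COL5A1*, whose chain helps to start fibrils, had a mean of 4785 and a level of 567 per kb. *COL1A1*, a chain of the most abundant collagen of bone and skin, had a mean of 192 and a level of 32.5 per kb, 17.4-fold less than *COL5A1*. *COL27A1*, a cartilage fibril collagen, had 51.5 per kb. The partner chains COL1A2 and COL5A2 have no row, nor has COL3A1.

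Collagen VI, which forms beaded filaments, was listed with 3 chains. *COL6A1* had 237 per kb, *COL6A2* 127 per kb and *COL6A3* 34.1 per kb, although 1 chain of each goes into the trimer. *COL6A1* was 1.87-fold above *COL6A2* and 6.93-fold above *COL6A3*. The latter ratio was 10.8 with total exonic length and 2.77 without division by length. *COL6A1* and *COL6A2* lie on the same strand of chromosome 21 with 93061 bases between them. *COL7A1*, the collagen of the anchoring fibrils that fasten epithelium to dermis, had a mean of 1720 and a level of 186 per kb.

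*COL13A1*, a membrane-bound collagen of cell adhesion sites, had a mean of 3488 and the highest level of any collagen chain, 1108 per kb. With total exonic length its level was 303 per kb, below *COL5A1* with 429 and *COL18A1* with 365 per kb, and its percentile fell from 90.7 to 79.9. *COL17A1*, the membrane collagen of hemidesmosomes, had 23.5 per kb, which was 47.1-fold less than *COL13A1*, or 16.1-fold less with total exonic length. *COL18A1*, a proteoglycan collagen of basement membranes and the source of endostatin, had 572 per kb. Among collagens that decorate other fibrils, *COL12A1* had 187, *COL9A2* 162 and *COL16A1* 11.3 per kb. These were 3 of 10 genes of that class.

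*LOXL2*, a crosslinker of collagen IV, had a mean of 5726 and a level of 1539 per kb, the second highest level of the matrix genes. *LOXL1*, which acts on elastic fibres, had 104 per kb. *LOX*, the founding enzyme of the family, had 61.6 per kb. *LOXL4* had 52.2 per kb. *LOXL2* was 14.8-fold above *LOXL1* and 24.98-fold above *LOX*, and was first of the family with each length. *LOXL1* was 1.69-fold above *LOX*, and *LOX* 1.18-fold above *LOXL4*. The ratio of *LOXL1* to *LOX* was 1.20 with total exonic length and turned to 0.781 without division by length. LOXL3 has no row.

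The basement membrane proteoglycans were abundant. *AGRN*, which encodes agrin, had a mean of 5989 and a level of 818 per kb. *HSPG2*, which encodes perlecan, had a mean of 6515 and a level of 454 per kb. NID1 and NID2, the nidogens that link laminin to collagen IV, have no row. Exons of an opposite-strand gene cover 11.6% of the *HSPG2* transcript and 28.9% of the *COL18A1* transcript. Whether counting used strand is not given in the sources used here.

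*THBS1*, an adhesive glycoprotein that also activates latent TGF-beta, had a mean of 16029 and a level of 2058 per kb, at percentile 95.0 of all genes. *FN1*, fibronectin, had a mean of 6228 and a level of 742 per kb, 2.77-fold less than *THBS1*, or 4.84-fold less with total exonic length. *TNC*, a glycoprotein of remodelling stroma, had 134 per kb, next to the median of all genes. SPARC, THBS2 and BGN have no row. Among glycoproteins of elastic fibres and the fibulin type, *EFEMP1* had 289 per kb. *FBN1*, the main protein of microfibrils, had 92.9 per kb from a mean of 1079. *FBLN1* had 52.1 per kb and *EFEMP2* 20.7 per kb from a mean of 40.1. *EFEMP1* was therefore 14.0-fold above its close relative *EFEMP2*, and 26.6-fold above it with total exonic length.

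The machinery that makes collagen was examined as a separate list of 24 genes, of which 20 have a row and 15 lay above the median of all genes. The chaperones and folding enzymes led: *P4HB*, a subunit of prolyl hydroxylase, had 5792 per kb, *PPIB*, a prolyl isomerase, 4716, and *SERPINH1*, the collagen chaperone, 1777. *P4HA1* and *P4HA2*, catalytic subunits of prolyl hydroxylase, had 312 and 220.5 per kb. The lysyl hydroxylases *PLOD1*, *PLOD3* and *PLOD2* had 655, 613 and 240.3 per kb. Of the enzymes and cofactors that trim procollagen outside the cell, *BMP1*, which removes the C-terminal propeptide, had 189 per kb. *PCOLCE* and *PCOLCE2*, which enhance that step, had 21.9 and 28.02 per kb. *ADAMTS3*, an N-propeptidase, had 10.5 per kb, and its relatives ADAMTS2 and ADAMTS14 have no row, nor has TLL1 or P4HA3.

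A sequence feature that the choice of genes did not use is the AUA element, the 7-base pattern that the study assigns to RBMS3. It reads A, G or T, then A or T, then ATA, then A or T, then A, and was sought on the transcript strand of the 3′UTR with overlaps counted. Among the matrix genes, 35 of 40 (87.5%) had at least 1 match in the 3′UTR of the representative transcript, beside 84.8% of 12350 listed genes with a 3′UTR. Their median number of matches was 2, against 3 over these genes, and the median 3′UTR had 1089 bases in matrix genes and 1378 bases in the 12350 genes. The A+U content was alike, with medians of 57.0% and 57.9%. A match is a run of letters in the annotation and not a measured site.

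Matches were unevenly shared. *LOX* had 18, *COL8A1* 16, *LAMA4* 15, *COL4A1* 14, *COL4A4* 13 and *COL4A5* 12, whereas 13 genes had a single match and *LAMA1*, *LAMB2*, *COL6A2*, *COL7A1* and *EFEMP2* had none. These counts depend on the length of the 3′UTR. Per kb of 3′UTR, *LOX* had 5.07 matches, *COL8A1* 5.19, *LAMA4* 9.96, *COL4A1* 10, *COL4A4* 2.82 and *COL4A5* 10.3. The median was 2.12 per kb over the matrix genes and 2.43 per kb over all listed genes with a 3′UTR. Chains that share a trimer or a family differed, in part with the transcript chosen. *LAMB1* had 4 matches in only 152 bases and *LAMB2* none in 112 bases, and with the longest annotated 3′UTR *LAMB1* had 7 and *LAMB2* still none. *COL4A1* had 14 matches in 1400 bases and *COL4A2* 1 in 1018 bases. With the longest 3′UTR this order was reversed, with 4 matches in 1818 bases for *COL4A1* and 9 in 4603 bases for *COL4A2*. That 3′UTR was taken over all annotated transcripts of a gene, whatever their type. It need not extend the representative one, and whether these cells use it is unknown. *LAMC1* had 10 in 2802 bases and *THBS1* 10 in 4097 bases.

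The following windows of 27 bases show how the matches look in genes of these sets and in the 2 adhesive glycoproteins with the highest levels. Each is the window with the most matches in that 3′UTR, the first where several tie, read 5′ to 3′ on the transcript strand from GRCh38, with matches in capitals.
COL4A1, minus strand, chr13:110149715-110149741: gtcaaaaattAAATATATATATATAtt
COL4A2, plus strand, chr13:110512988-110513014: aacgactacaAAATAAAacttggttct
LAMB1, minus strand, chr7:107923799-107923825: AAATAAAgtacagtgcttttGTATATA
LAMA5, minus strand, chr20:62309167-62309193: ttaaacgaaaGAATAAAatactgcaaa
THBS1, plus strand, chr15:39595584-39595610: tcttccaagcATATAAAcaattgcttt
FN1, minus strand, chr2:215360869-215360895: acaactgtttTAATAAAagatttacat

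The windows show 2 kinds of match. In *COL4A1*, 5 overlapping matches sit in an AT repeat, and the match shown for *THBS1* also lacks AATAAA, the polyadenylation hexamer, although 6 of its 10 matches contain it. In *COL4A2*, *LAMA5* and *FN1* the match contains AATAAA, which the pattern allows. The paper names AATAAA as the top motif in its CLIP-seq of RBMS3, so a match that contains it is not thereby unrelated to RBMS3. The longest annotated 3′UTR of *LAMA5*, with 462 bases, has no match. The *LAMB1* window holds a match of each kind. Of the 175 matches in matrix genes, 78 contained AATAAA. At least 1 such match occurred in 33 of 40 matrix genes (82.5%), beside 76.3% of the 12350 listed genes with a 3′UTR. In 18 of the 35 genes with a match, every match did so, and in 11 of these 18 the last one ended within 50 bases of the annotated transcript end, as in *FN1*, where 14 bases follow. All 13 genes with a single match belong to this set of 18. For the counts of 18, 11 and 13 no share over all listed genes was taken, so they do not set matrix genes apart. Counting only matches without AATAAA, a choice made after the values were seen, 17 of 40 matrix genes (42.5%) had at least 1, beside 62.4% of the 12350 listed genes with a 3′UTR. These were shares of annotated sequences, and no test was made of the difference.

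**Figure D4:**
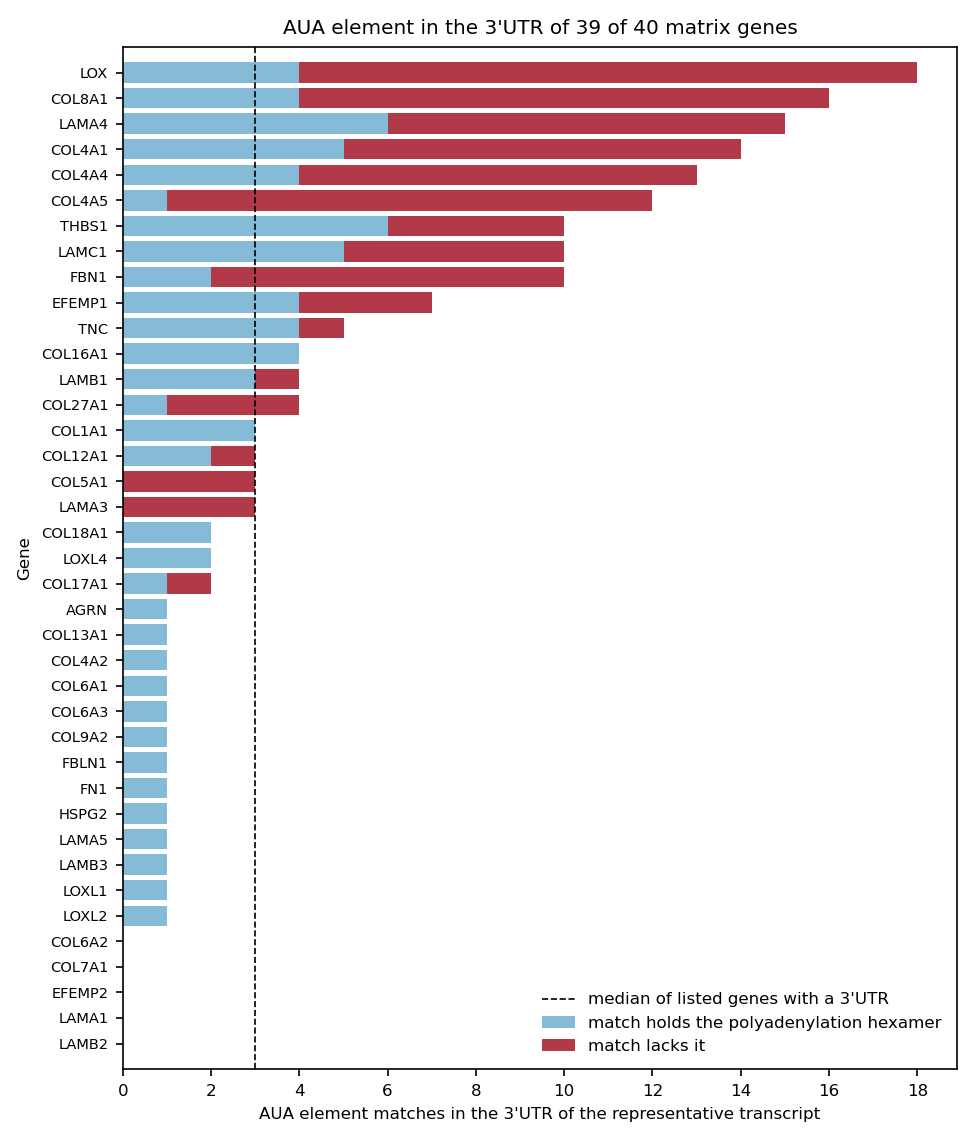
AUA element matches in the 3′UTR of 39 of the 40 matrix genes. Bars count matches in the representative transcript, in blue those that contain the polyadenylation hexamer AATAAA and in red those that do not. The dashed line marks the median of the listed genes with a 3′UTR, 3. The 13 genes with a single match are all blue, and *LOX*, with 18 matches, has the longest bar.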

How the data were processed

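The authors extracted RNA with TRIzol, depleted ribosomal cDNA while preparing strand-specific total RNA libraries, and sequenced paired ends. Salmon, DESeq2 and the build hg38 are named in the submitters' processing notes, without role or version. The deposited table holds 1 row per gene. The deposited signal used here is the mean normalized count that the authors computed over the libraries of their comparison. The 5 other value columns hold the authors' own comparison (log2 fold change, its standard error, a test statistic, a p-value and an adjusted p-value) and were not used, so there is no test, no background of calls and no value per library. Depth is unknown and precision cannot be given.

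Of the 15917 rows, 15829 had an Ensembl identifier in GENCODE 44 (GRCh38). The files carry no coordinates, so all coordinates are those of GENCODE. The representative transcript was MANE Select, otherwise Ensembl canonical, otherwise that with the longest coding sequence. Its length in kb divided the mean count, and percentiles were taken over matched genes. 3′UTRs of at least 7 bases were searched. The printed window holds the most matches, with the first taken on ties. All 34 windows written equalled hg38. The functions passed 4 of 4 checks on simulated data. All genes found by the rule were named or counted by role, except that the values of 1 gene are not reported here. The members, lists and roles were chosen with earlier results of these data known. Alternatives were the length, protein-coding genes only, the 3′UTR, the number of matches and the coding sequence. Python 3.11.15, numpy 2.4.6, pandas 2.3.3 and matplotlib 3.10.9 were used.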

Additional observations from a re-analysis of the deposited data

How the results depend on the processing

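The count of matrix genes above the median of all genes was 23 per kb and ranged from 23 with protein-coding genes only to 27 without division by length, with 24 for total exonic length and 25 for the longest transcript. The median level of 182 per kb was 124 with total exonic length, which is at least as long by construction, and 181 with the longest transcript. The share of the 5 highest genes, 42.9%, was 47.98% with total exonic length, 43.3% with the longest transcript and 43.6% without division by length. Of these 5 genes, 3 were kept with total exonic length, 5 with the longest transcript and 1 without division by length. The percentile of a gene moved by -12.6 points (*LAMB1*) to 9.97 points (*LOXL4*) with total exonic length. The 35 genes with an AUA element (87.5%, beside 84.8% of all genes searched) were 33 with the longest 3′UTR (82.5%, beside 83.2%) and 18 with at least 3 matches (45%, beside 53.1%). They were 17 with the coding sequence searched instead (42.5%, beside 40.5%) and 17 with matches that lack AATAAA (42.5%, beside 62.4%), the last chosen after seeing the data. The matrix genes' share was thus above that of all genes in some of these settings and below it in others. Fewer follow by construction from a stricter count. For the coding sequence the cause was not tested.

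The planned test of knockdown against control and its alternatives (another scaling, no filter on low counts, each replicate left out) were not run, since they need values per library. No paired analysis was possible because the column used is a mean over libraries and carries no replicate. Depth limits every value to an unknown extent, and genes with means near 26.7, such as *LAMA1*, are the least certain.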

Other observations

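Receptors for laminin and collagen were listed for 11 of 13 genes, with 6 above the median of all genes in level per kb. The laminin-binding integrin chains were high, with *ITGA3* at 5343 per kb, *ITGB1*, the common beta chain, at 3147, *ITGB4*, the beta chain of hemidesmosomes, at 1057 and *ITGA6* at 594. *DAG1*, which encodes dystroglycan, a receptor for laminin, agrin and perlecan, had 788 per kb. Among collagen-binding receptor chains other than *ITGB1*, *ITGA2* had 350 per kb, *DDR1* 117, *ITGA10* 26.8, *ITGA1* 26.7 and *DDR2* 2.98. *BCAM*, a receptor for the laminin alpha chain of *LAMA5*, had 115 per kb, near *DDR1* and below *ITGA2*. ITGA7 and ITGA11 have no row.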
